A study of Homo sapiens with 24 samples.

Results

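JARID2 and the subunits of Polycomb repressive complex 2 (PRC2) were followed through the RNA of human cells made to express one of 7 microRNAs (miRNAs). The set was named by gene symbol and consists of JARID2, EZH1, EZH2, EED, SUZ12, AEBP2, MTF2, PHF19, RBBP4 and RBBP7, which are 10 of the 29794 genes counted. All 10 passed the filter on low counts in both batches. PRC2 places methyl groups on lysine 27 of histone H3, a mark of silenced developmental genes. Its catalytic subunit is EZH2 or the related EZH1, held in a core with EED, SUZ12 and the histone-binding proteins RBBP4 and RBBP7. JARID2 and AEBP2 join one form of the complex and the Polycomb-like proteins MTF2 and PHF19 another, and these accessory proteins help to bring the complex to chromatin. A miRNA guides Argonaute proteins to messenger RNAs, mostly by pairing of its seed, positions 2 to 8 from the 5′ end, with sites in the 3′UTR.

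Each of the 24 libraries was polyA+ RNA of Flp-In T-REx 293 cells, a derivative of the embryonic kidney line HEK293 with a tetracycline repressor. All cells carried a lentiviral vector with a neomycin resistance gene and GFP behind a doxycycline-inducible CMV promoter. In the miRNA groups a hairpin with the miRNA lay within an intron of the GFP transcript, and the empty vector had no hairpin. Every group, controls included, was selected in 1 mg/mL Geneticin for 6 days and then given 1 µg/mL doxycycline for 7 days, so the empty vector cells differed from the others in the hairpin and not in the drugs. Batch 1 was made up of miR-1, miR-122 and an empty vector, in 2 libraries per group. Batch 2 was made up of an empty vector, miR-155, miR-133a and the trio miR-302a, miR-372 and miR-373, in 3 libraries per group. Each library of a group came from its own transduction and culture. The promoter is a strong viral one in a kidney line, and miRNA levels were not analysed here. By qPCR, the paper reports miR-122 at about the level of the endogenous miRNA detected most highly, and miR-1 above that level. The reference was in each case the empty vector of the same batch, so comparisons within a batch share their control libraries.

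Library totals ran from 20153452 to 21595191 counts in batch 1 and from 13047400 to 35040778 in batch 2. In the empty vector libraries KRT8, KRT18 and VIM, which HEK293 cells express, had mean levels of 81.8 to 1032 CPM (counts scaled to library size), whereas the leukocyte, hepatocyte and muscle markers PTPRC, ALB and MYOG had 0 to 5 reads. Other markers listed for HEK293 cells were low, with means of 2.39 and 2.48 CPM for NEFM and 7.20 and 8.18 CPM for PAX2. Markers of other cell types were at similar levels, with 5.38 and 6.29 CPM for MYH3 (muscle) and 12.3 and 12.9 CPM for COL1A1 (fibroblasts). Levels of NEFL, a further HEK293 marker, and of PECAM1 (endothelium) are not given here. Genes known as targets of these miRNAs (TWF1, ALDOA, TAGLN2, BACH1 and LATS2) fell with their miRNA in all 7 groups, by log2 changes between -1.99 and -0.47. Replicate 2 of miR-155, of miR-302a and of miR-372 stood apart from their groups. Chi-square per degree of freedom across genes was 15.2 to 33.6 in pairs that held these libraries and 2.38 to 6.71 between the other 2 replicates of the same groups. This measure grows with read depth, and the value of 33.6 came from a pair with miR-372 replicate 3, which had 25477596 counts. Pairs of other groups reached 12.6 (miR-373 replicates 2 and 3) and 8.13 (empty vector of batch 2, replicates 1 and 2). The main values use all libraries, and values without these 3 are given beside most of the calls made in their groups.

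The 7 miRNAs carry 5 seeds, which decide where in the transcripts a match can lie. The mature sequences (RefSeq, GRCh38.p14) are shown 5′ to 3′ with positions 2 to 8 in capitals. The seeds of miR-1 and miR-122 look alike but are distinct, and miR-302a, miR-372 and miR-373 share a seed.
hsa-miR-1-3p: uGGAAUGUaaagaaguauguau
hsa-miR-122-5p: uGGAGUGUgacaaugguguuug
hsa-miR-133a-3p: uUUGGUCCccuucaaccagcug
hsa-miR-155-5p: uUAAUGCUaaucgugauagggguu
hsa-miR-302a-3p: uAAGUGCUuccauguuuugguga
hsa-miR-372-3p: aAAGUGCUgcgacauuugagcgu
hsa-miR-373-3p: gAAGUGCUucgauuuuggggugu

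The sites below are the 3′UTR seed matches in the members whose RNA was called lower, and one in EZH1, whose RNA was not. They were found in the longest annotated 3′UTR of each gene (GENCODE, GRCh37) by a search of the transcript strand only. An 8mer matches positions 2 to 8 and has an A opposite position 1, a 7mer-m8 matches positions 2 to 8 only, and a 7mer-A1 matches positions 2 to 7 and has the A. Each line gives 24 bases of the transcript strand with the matching bases in capitals, and a match is a description and not a measured site.
JARID2, miR-155, 8mer, chr6:15520612-15520635, plus strand: gaactaattttgttttAGCATTAA
JARID2, miR-155, 8mer, chr6:15521414-15521437, plus strand: gacaccttcacaagtcAGCATTAA
JARID2, miR-1, 8mer, chr6:15521366-15521389, plus strand: acgtgcaatctttctaACATTCCA
SUZ12, miR-1, 7mer-A1, chr17:30327268-30327291, plus strand: ttttaattttaaaatttCATTCCA
PHF19, miR-122, 8mer, chr9:123619983-123620006, minus strand: gtgcctgtgtctctacACACTCCA
MTF2, miR-122, 7mer-A1, chr1:93604354-93604377, plus strand: tcccgtgtatccttattCACTCCA
AEBP2, miR-302a, miR-372 and miR-373, 7mer-m8, chr12:19672915-19672938, plus strand: tgttttcttttgcttaAGCACTTc
EZH1, miR-302a, miR-372 and miR-373, 8mer, chr17:40854523-40854546, minus strand: tcccaggccccacggcAGCACTTA

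Levels of the 10 genes were first compared per length in the empty vector libraries, as CPM per kilobase of counted exon. RBBP7, a histone chaperone that also serves in other chromatin complexes, was the most abundant, with a mean of 212 in batch 1 (212 and 213 in its 2 libraries) and of 238 in batch 2 (223 to 246 in its 3 libraries). RBBP4, SUZ12 and EZH2 followed with means of 36.1 to 41.6, and their order differed between the batches. MTF2 stood at 22.2 and 22.3. JARID2 (12.7 and 12.4), AEBP2 (12.2 and 12.6), EZH1 (10.8 and 10.4), EED (8.80 and 9.05) and PHF19 (8.79 and 8.26) were the lowest, and within each batch the ranges of JARID2 and AEBP2 overlapped. EZH2 transcripts were thus 3.53 times as abundant per kilobase as EZH1 transcripts in batch 1 and 3.54 times in batch 2. These levels use the counted exon length of each gene, which no single transcript need contain. The annotation behind the counts need not be the one searched for sites. For AEBP2 the counted length is 4524 bases. That is shorter than the 4110 bases of 3′UTR and 1512 bases of coding sequence together in the transcript searched.

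**Figure D1:**
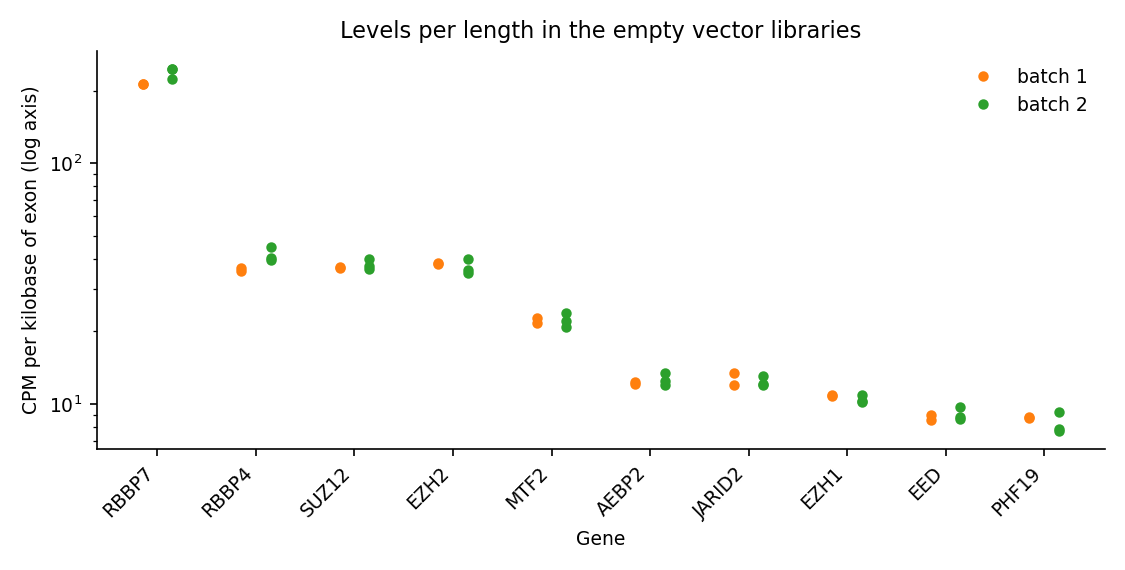
CPM per kilobase of counted exon (log axis) of the 10 genes in the empty vector libraries, 1 point per library, orange for batch 1 and green for batch 2. RBBP7 lies highest in every library, and JARID2, AEBP2, EZH1, EED and PHF19 lie lowest.

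The clearest change was that of JARID2, a DNA-binding relative of the Jumonji demethylases without demethylase activity, in cells with miR-155 (ENSG00000008083.9; chr6:15246300-15522273, plus strand). JARID2 stood at 76.1, 83.4 and 77.0 CPM in the 3 empty vector libraries of batch 2 and at 38.6, 28.1 and 39.2 CPM in the 3 miR-155 libraries. The groups were far apart, and the miR-155 levels rested on 591, 367 and 553 reads. The log2 fold change was -1.16 (SE 0.112, edgeR quasi-likelihood adjusted p 2.1e-06), a level 55.2% lower. Replicate 2 was the lowest of the miR-155 libraries and one of those that stood apart, and without it the log2 fold change was -1.02. Leaving out each of the 6 libraries in turn gave -1.24 to -1.02, with an adjusted p of at most 2.8e-05. JARID2 was the only member called lower with miR-155 by edgeR and none was called higher, where 4.81% of all 14054 tested genes were called lower and 2.82% higher. Without regard to the test, 4 of the 10 members, JARID2 included, had a log2 fold change below 0. In bulk RNA, fewer cells with a transcript and less of it per cell cannot be told apart.

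JARID2 was also set against the other miRNAs of the same batch, a comparison without the empty vector. Its mean was 35.3 CPM with miR-155, 78.8 in the empty vector, 83.0 with miR-133a, 90.1 with miR-302a, 91.5 with miR-373 and 91.5 with miR-372. Apart from miR-155, neighbours in this order overlapped in their libraries. Against the mean of the other 4 miRNAs, JARID2 in miR-155 cells was lower by -1.33 on the log2 scale (SE 0.0955, adjusted p 1.3e-08 by edgeR). Without the 3 libraries that stood apart it was lower by -1.18. In this comparison AEBP2 was higher by 0.33 (SE 0.0576, adjusted p 3.1e-04) and PHF19 by 0.31 (SE 0.0702, adjusted p 0.0029), so 3 of 10 members were called where 12% of all genes were lower and 13% higher. Without those libraries the AEBP2 and PHF19 differences were 0.31 and 0.32, both called, and with the replicate number as a block SUZ12 was also called, which made 4 members. Neither AEBP2 nor PHF19 differed from the empty vector with miR-155 at the threshold (AEBP2 0.11, adjusted p 0.37, and PHF19 0.19, adjusted p 0.21).

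The 3′UTR of JARID2 is 1791 bases long and holds both miR-155 8mers, 146 and 948 bases into it, in each of its 2 coding transcripts with a 3′UTR. Of 13041 tested genes with a 3′UTR, 47 (0.36%) had 2 or more such 8mers. Those 47 genes had a median log2 fold change of -0.27 with miR-155, and 36.2% of them were called lower. JARID2 had the second lowest value of the 47 and was 11th from the lowest among the 654 genes with at least 1 miR-155 8mer.

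JARID2 also fell with miR-1, in batch 1. It stood at 85.6 and 76.1 CPM in the empty vector libraries, at 58.0 and 62.0 CPM with miR-1, and at 79.6 and 77.8 CPM with miR-122. The miR-1 libraries were below all others of the batch. The log2 fold change was -0.43 (SE 0.0577, edgeR adjusted p 2.0e-05) against the empty vector and -0.39 (SE 0.0579, edgeR adjusted p 3.9e-05) against miR-122. With miR-122 itself it was -0.04 (95% confidence interval -0.16 to 0.08, adjusted p 0.77). The single miR-1 8mer lies 900 bases into the 3′UTR, between the miR-155 8mers. An 8mer for miR-1 occurred in 773 (5.86%) of the tested genes with a 3′UTR, which had a median log2 fold change of -0.13, and JARID2 was 144th from the lowest among them.

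With the miRNAs that lack a JARID2 seed match in the 3′UTR, the gene was not called in either direction. Its log2 fold changes were 0.07 with miR-133a, 0.19 with miR-302a, 0.22 with miR-372 and 0.21 with miR-373. The 95% confidence interval was -0.15 to 0.30 for miR-133a and -0.01 to 0.44 for both miR-372 and miR-373. All 6 libraries of miR-372 and miR-373 lay above the 3 empty vector libraries (86.4 to 98.6 against 76.1 to 83.4 CPM), while those of miR-302a overlapped them. Without the 3 libraries that stood apart, JARID2 was called higher with miR-372 (0.25, SE 0.0798, edgeR adjusted p 0.035) and over the 3 same-seed miRNAs averaged (0.19 against 0.21 with all libraries, edgeR adjusted p 0.025 against 0.12).

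**Figure D2:**
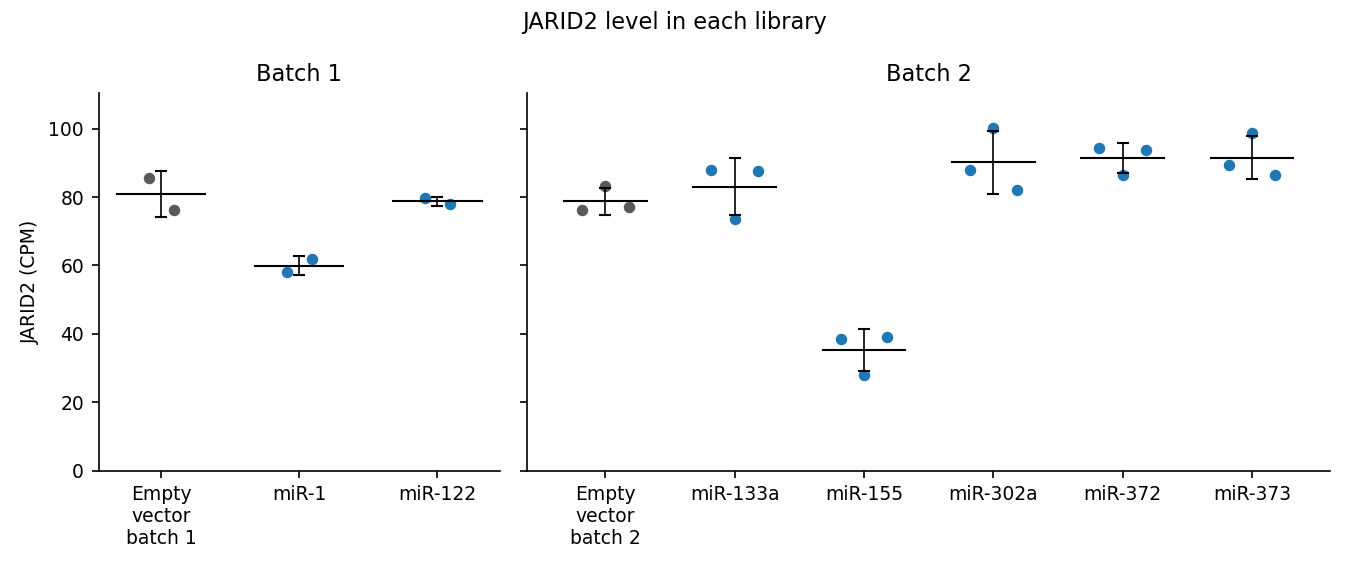
JARID2 in CPM in each of the 24 libraries by group, batch 1 at the left and batch 2 at the right, with 1 point per library, a line at the group mean and bars of ±1 SD. The miR-155 libraries sit between 28.1 and 39.2 CPM and the miR-1 libraries at 58.0 and 62.0 CPM, and every other library lies above 73.

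Over the 18 libraries of batch 2, the genes whose log2 CPM followed JARID2 most closely were SLC11A2, ATXN1L, BACH1, RAB11FIP2 and NORAD, with Pearson correlations of 0.979, 0.978, 0.972, 0.971 and 0.969. The libraries share groups, and the miR-155 libraries were the lowest of the 18 for JARID2. A gene that was low with miR-155 was therefore favoured by this measure. Among the other members the same correlation ran from -0.71 for AEBP2 and PHF19 to 0.25 for MTF2, so no PRC2 subunit followed JARID2 closely.

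SUZ12, the core subunit on which the complex is assembled, was the other member called lower with miR-1. Its levels were 165 and 166 CPM in the empty vector libraries, 141 and 132 CPM with miR-1, and 157 and 166 CPM with miR-122. The miR-1 libraries lay below the other 4. The log2 fold change was -0.28 (SE 0.0455, edgeR adjusted p 1.6e-04) against the empty vector and -0.24 (SE 0.0456, edgeR adjusted p 4.8e-04) against miR-122. SUZ12 carries only the weaker 7mer-A1 match to miR-1. A match of any of the 3 classes was found in 3184 genes (24.1%), of which 26.4% were called lower. With miR-1 as a whole, 2 of 10 members were called lower and 0 higher, where 13.7% of the 14348 tested genes were lower and 10.8% higher. The count of 0 rests on edgeR's test, by which 5 members, SUZ12 and JARID2 included, had an unadjusted p under 0.05, and DESeq2 called 2 members.

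Without regard to the test, the libraries of miR-1 and the empty vector did not overlap for any member. JARID2, SUZ12 and PHF19 were lower and the other 7 higher, where 31.6% and 29.7% of all genes were so placed with 2 libraries in each group. No such share is given for the other comparisons. Where libraries of JARID2, EZH2, AEBP2, PHF19, MTF2 or RBBP7 did not overlap there, the statement therefore has no background beside it. The median log2 fold change of the 10 members with miR-1 was 0.07.

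SUZ12 also holds a 7mer-m8 match to miR-155 and one to the seed common to miR-302a, miR-372 and miR-373. It was not lower with miR-155, at 182, 203 and 185 CPM against 179, 164 and 168 CPM in the empty vector (log2 fold change 0.16, 95% confidence interval -0.02 to 0.33). With miR-302a, miR-372 and miR-373 its log2 fold changes were -0.12, -0.08 and -0.05, none of them called.

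EED, the core subunit that reads the methyl mark, was called in none of the 7 comparisons with the empty vector. Its log2 fold changes ran from -0.04 with miR-302a to 0.21 with miR-155, with SE of 0.0702 to 0.135. No seed match was found in its 3′UTR of 740 bases.

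The catalytic subunits gave no call against a single miRNA. EZH2 had log2 fold changes of -0.21 to 0.08, and its 3′UTR of 263 bases held no match to any of the 7 miRNAs. With miR-302a and miR-372, all 3 libraries of each were below the 3 empty vector libraries (102 to 114 against 117 to 134 CPM), with log2 fold changes of -0.17 (adjusted p 0.16) and -0.21 (adjusted p 0.072). Over the mean of these miRNAs and miR-373 EZH2 was lower by -0.18 (SE 0.0582, edgeR adjusted p 0.045). This call was lost when any one of 10 of the 12 libraries was left out.

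EZH1 carried more sites than most members. Its longest 3′UTR of 2257 bases holds an 8mer and a 7mer-m8 for the seed common to miR-302a, miR-372 and miR-373, a pair of 7mer-m8 matches for miR-155 and a 7mer-A1 for miR-122. The 8mer is in 5 of its 9 coding transcripts. EZH1 was not called lower with any of them, and its log2 fold changes were -0.08, -0.20 and -0.08 with miR-302a, miR-372 and miR-373, -0.10 with miR-155 and 0.07 with miR-122. Precision was poor in batch 2, with SE of 0.174 to 0.175. Levels were 54.8, 33.9 and 53.3 CPM with miR-155, 57.4, 40.2 and 46.8 CPM with miR-302a and 50.4, 31.2 and 50.3 CPM with miR-372. The lowest library of each was replicate 2, which is the library that stood apart in each group, whereas the empty vector lay between 49.6 and 52.7 CPM. Without those 3 libraries the EZH1 log2 fold changes were 0.09 with miR-155, 0.04 with miR-302a and -0.01 with miR-372, with SE of 0.0935 to 0.0955, and none was called. The value changed sign with miR-155 and with miR-302a.

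AEBP2, a zinc finger accessory subunit that is found with JARID2, was lower with all 3 miRNAs that share a seed. It stood at 60.8, 56.0 and 54.1 CPM in the empty vector libraries. Its levels were 48.7, 47.4 and 47.5 CPM with miR-302a, 48.5, 45.3 and 42.4 CPM with miR-372 and 50.2, 47.5 and 44.4 CPM with miR-373. All 9 libraries lay below every empty vector library, and also below every library of miR-133a (53.3 to 58.4 CPM) and miR-155 (60.3 to 63.8 CPM). The log2 fold changes against the shared empty vector libraries were -0.25 (SE 0.0747, edgeR adjusted p 0.044) for miR-302a, -0.33 (SE 0.0746, edgeR adjusted p 0.0071) for miR-372 and -0.27 (SE 0.0742, edgeR adjusted p 0.039) for miR-373. AEBP2 was the 1 member called lower in each, where 4.85%, 6.56% and 3.3% of all genes were called lower and 3.02%, 4.82% and 1.83% higher.

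These 3 calls were not equally firm. Leaving out any one library of the groups compared ended the call for miR-302a and for miR-373, with adjusted p up to 0.17 and 0.20, and log2 fold changes of -0.29 to -0.20 and -0.31 to -0.22. For miR-372 the call held in all 6 such fits, with an adjusted p of at most 0.045. Without the 3 libraries that stood apart, the log2 fold changes were -0.25, -0.33 and -0.27, all called. Over the mean of the 3 miRNAs AEBP2 was lower by -0.28 (SE 0.0600, edgeR adjusted p 0.0032), and with EZH2 this made 2 of 10 members called lower where 9.11% of all genes were lower and 6.28% higher. Against the mean of miR-133a and miR-155, a reference that uses none of the empty vector libraries and was chosen after the levels were seen, AEBP2 was lower by -0.33 (SE 0.0478, edgeR adjusted p 3.6e-05). SUZ12 was lower by -0.25 (SE 0.0535, edgeR adjusted p 0.0018) against that reference, and was not called against the empty vector. Its means were 191 CPM with miR-133a and 190 with miR-155, above the 170 of the empty vector. With miR-302a, miR-372 and miR-373 they were 156, 161 and 165 CPM. JARID2 and MTF2 were called higher against the reference, where 13.5% of all genes were lower and 14.3% higher. For JARID2 the reference held the low miR-155 levels. For MTF2 it held means of 80.7 CPM (miR-133a) and 87.7 CPM (miR-155), beside 92.0 CPM in the empty vector.

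The AEBP2 match is a 7mer-m8 at 1880 bases of a 3′UTR of 4110 bases, present in 3 of 9 coding transcripts. A 7mer-m8 or 8mer for this seed is common, at 3442 (26.4%) of the tested genes with a 3′UTR, of which 12.4% were called lower with miR-372. AEBP2 ranked 560th from the lowest of them.

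Compared directly, the 3 miRNAs with the same seed gave no difference in any member. By edgeR 0 of 10 members were called in any of the 3 pairs, none had an unadjusted p under 0.05, DESeq2 called 0, and 0% of all genes were called. In the order miR-302a less miR-372, miR-302a less miR-373 and miR-372 less miR-373, the log2 differences of AEBP2 were 0.08 (95% confidence interval -0.08 to 0.24), 0.02 (-0.14 to 0.17) and -0.06 (-0.22 to 0.10), and those of JARID2 -0.02 (-0.24 to 0.20), -0.02 (-0.24 to 0.20) and 0.00 (-0.22 to 0.22).

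The Polycomb-like subunits PHF19 and MTF2, which bind CpG-rich DNA and methylated histone H3, fell with miR-122. PHF19 stood at 48.4 and 48.9 CPM in the empty vector libraries and at 42.2 and 37.8 CPM with miR-122 (log2 fold change -0.28, SE 0.0622, edgeR adjusted p 0.0074). MTF2 stood at 93.8 and 89.5 CPM and at 82.2 and 78.1 CPM (log2 fold change -0.19, SE 0.0498, edgeR adjusted p 0.023). The groups did not overlap for either gene, and the changes were small. The share of all genes without overlap is not given for miR-122. Together they made 2 of 10 members lower and 0 higher, where 4.06% of all genes were lower and 1.86% higher. These were the only members with an unadjusted p under 0.05, and DESeq2 called PHF19 alone (MTF2 adjusted p 0.12). The MTF2 call was lost in 3 of 4 fits without one library, and that of PHF19 was lost without miR-122 replicate 2 (adjusted p 0.18).

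PHF19 carries a miR-122 8mer 232 bases into its 3′UTR, in 3 of 8 coding transcripts, and MTF2 a 7mer-A1 at 1787 bases of a 3′UTR of 2052 bases. Genes with a miR-122 8mer numbered 487 (3.69%), with 25.3% called lower, and PHF19 was 130th from the lowest of them. MTF2 was higher with miR-1 than with miR-122 by 0.30 (SE 0.0494, edgeR adjusted p 1.1e-04), PHF19 by 0.21 (SE 0.0625, edgeR adjusted p 0.016) and AEBP2 by 0.23 (SE 0.0527, edgeR adjusted p 0.0029). With JARID2 and SUZ12, which were lower, 5 of 10 members differed between the seeds of miR-1 and miR-122, where 16% of all genes were lower and 15.2% higher.

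**Figure D3:**
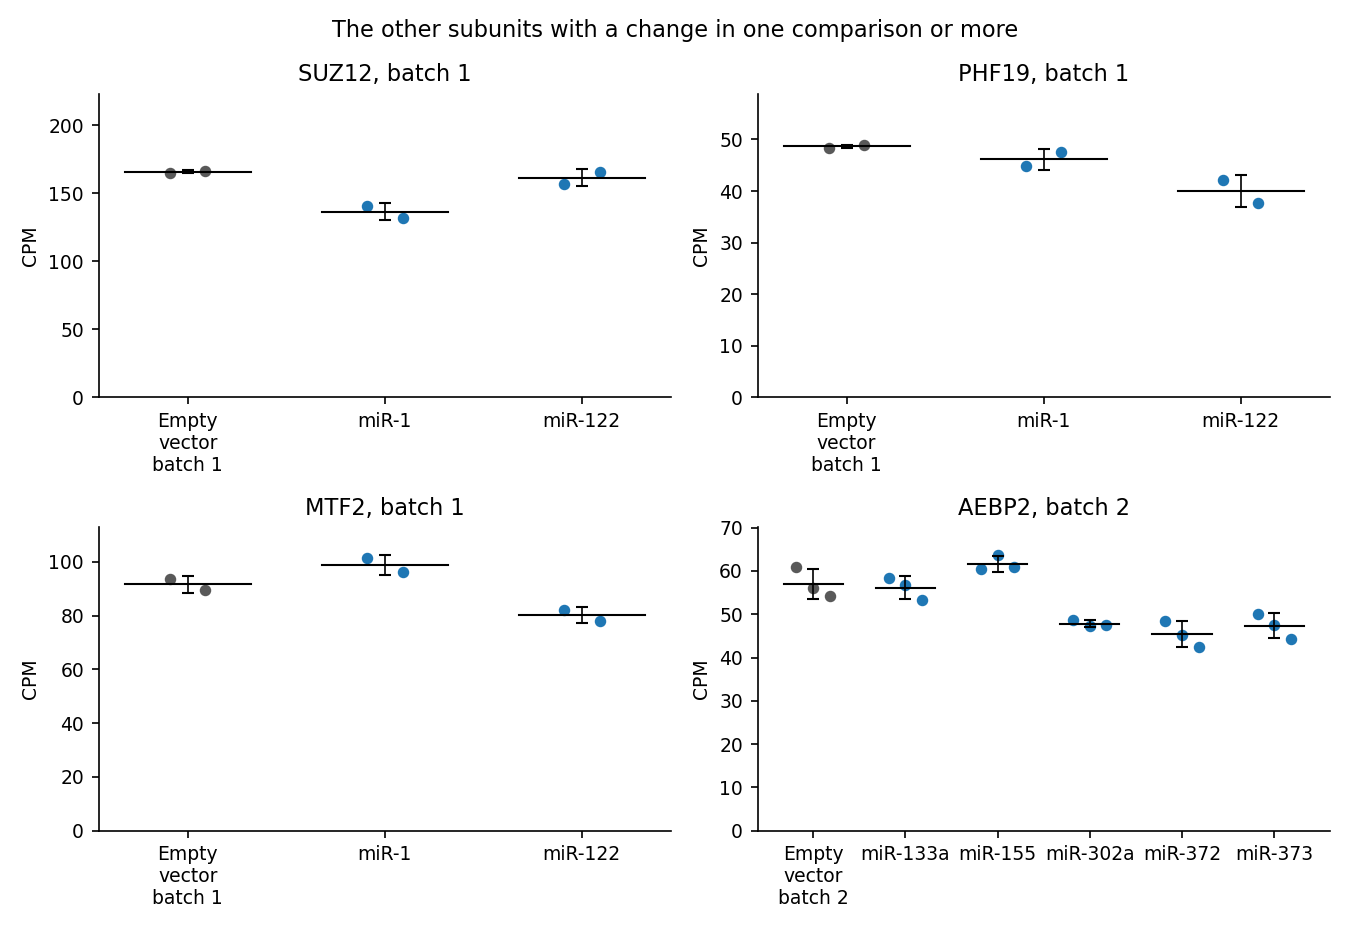
CPM in each library of SUZ12, PHF19 and MTF2 in batch 1 and of AEBP2 in batch 2, with 1 point per library, a line at the group mean and bars of ±1 SD, grey for the empty vector. SUZ12 is lowest with miR-1, PHF19 and MTF2 are lowest with miR-122, and the 9 AEBP2 libraries with miR-302a, miR-372 or miR-373 lie between 42.4 and 50.2 CPM.

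With miR-133a no member passed the test. By edgeR 0 of 10 were called, where 3.97% of all genes were lower and 1.37% higher, 3 had an unadjusted p under 0.05, and DESeq2 called 0. Those 3 were MTF2 (log2 fold change -0.19, adjusted p 0.15), PHF19 (-0.19, adjusted p 0.24) and RBBP7 (0.20, adjusted p 0.20). RBBP7 stood at 863, 887 and 924 CPM with miR-133a against 797, 726 and 801 CPM. These groups did not overlap, for which no share over all genes is given. Without the 3 libraries that stood apart, which left the libraries of this comparison in place, RBBP7 was called higher (adjusted p 0.048). The longest 3′UTR of each of the 10 members held no miR-133a match, but another annotated 3′UTR of PHF19 held 1 7mer-m8.

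Of the histone-binding subunits RBBP4 and RBBP7, RBBP4 was the steadiest of all members. RBBP4 had log2 fold changes of -0.03 to 0.06 over the 7 comparisons and RBBP7 of 0.03 to 0.20. The longest 3′UTR of RBBP4, 6506 bases, holds an 8mer for miR-1 and matches of other classes for 5 more of the miRNAs, the exception being miR-133a. Each of these lies in only 1 of 9 coding transcripts. With miR-1, RBBP4 stood at 320 and 319 CPM against 301 and 312 CPM in the empty vector. RBBP7 has a 7mer-m8 for the seed common to miR-302a, miR-372 and miR-373 in 3 of 8 coding transcripts, and its log2 fold changes with these miRNAs were 0.10, 0.06 and 0.06.

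**Figure D4:**
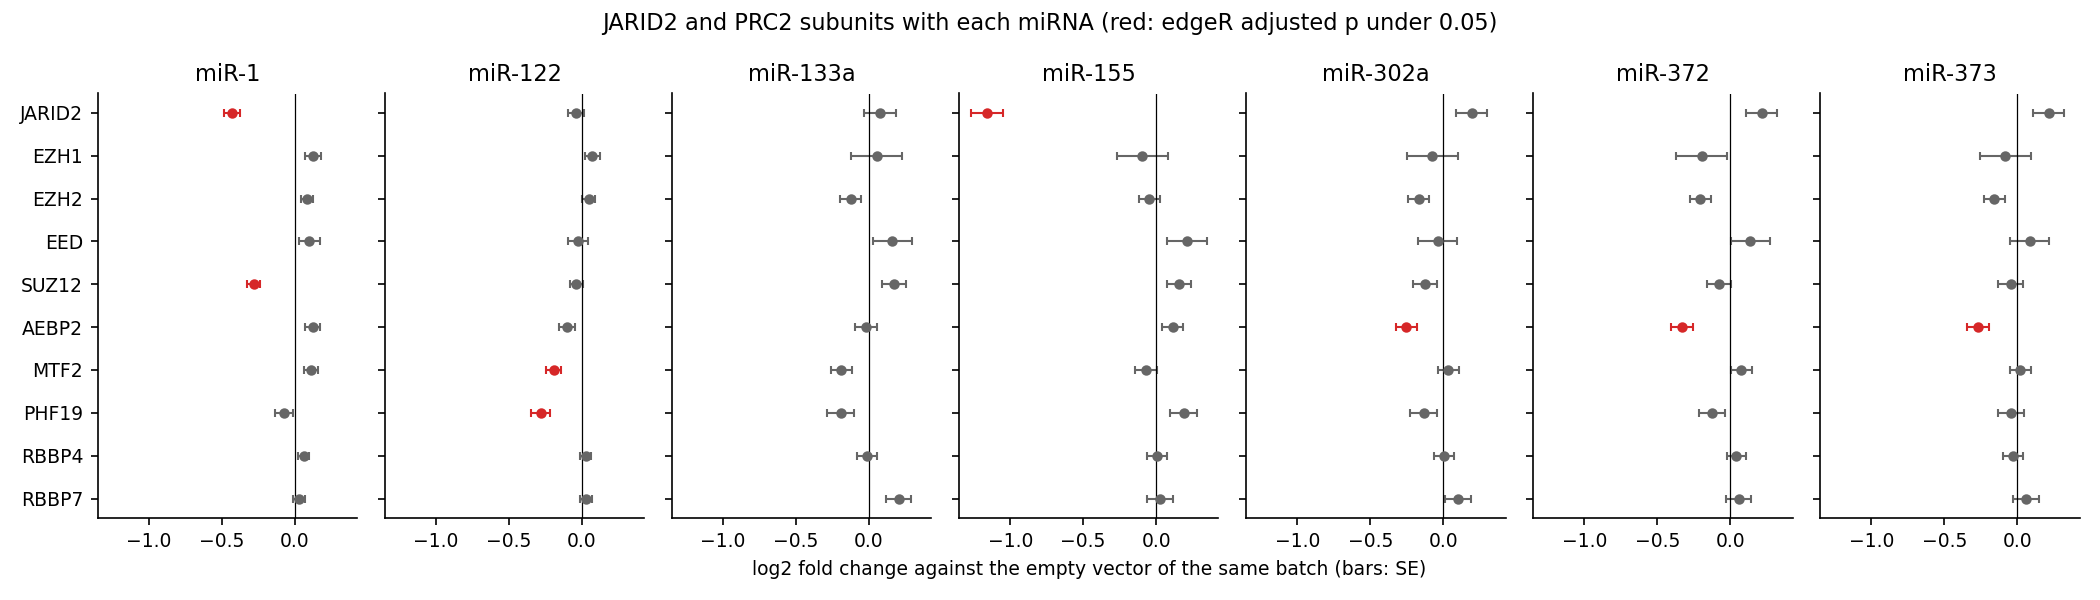
Log2 fold change against the empty vector of the same batch for the 10 genes (rows) with each of the 7 miRNAs (panels), with bars of ±1 SE and red points for an edgeR adjusted p under 0.05. JARID2 with miR-155 lies at -1.16, and the other 7 red points lie between -0.43 and -0.19.

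The 10 genes and 7 miRNAs form 70 pairs, and 26 of these had a seed match in the longest 3′UTR. All 8 changes called against the empty vector were decreases and fell on pairs with a match, where 13.5% of all such pairs of tested genes and miRNAs were called lower. Of the 44 pairs without a match, 0 were called by edgeR and 9 had an unadjusted p under 0.05, where 3.77% of all pairs without a match were called lower and 4.49% higher. The 7 pairs whose best match was an 8mer had a median log2 fold change of -0.20, with 3 called lower, beside a median of -0.17 and 27.8% called lower over all genes. Of the 14 pairs with a 7mer-m8 as best match 3 were called, all AEBP2, and of the 5 pairs with a 7mer-A1 2 were called, beside 10.2% and 10.9% over all genes. With counts this small the members are not shown to differ from other genes with the same class of match. Some pairs without a match in the longest 3′UTR were called under an alternative. EZH2 with miR-372 was lower (-0.20), whereas JARID2 with miR-372 (0.25), RBBP7 with miR-133a (0.20) and MTF2 with miR-1 (0.14) were higher. The fit for MTF2 left out empty vector replicate 1, so it held 1 empty vector library. EZH2 with miR-372 and RBBP7 with miR-133a, which was higher, do have a match in the coding sequence, a 7mer-A1 and an 8mer. Of the 44, PHF19 with miR-133a and RBBP7 with miR-122 have a match in another annotated 3′UTR. The other 18 pairs with a match were not called. Pairs are not independent, because miR-302a, miR-372 and miR-373 share their matches and their controls.

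**Figure D5:**
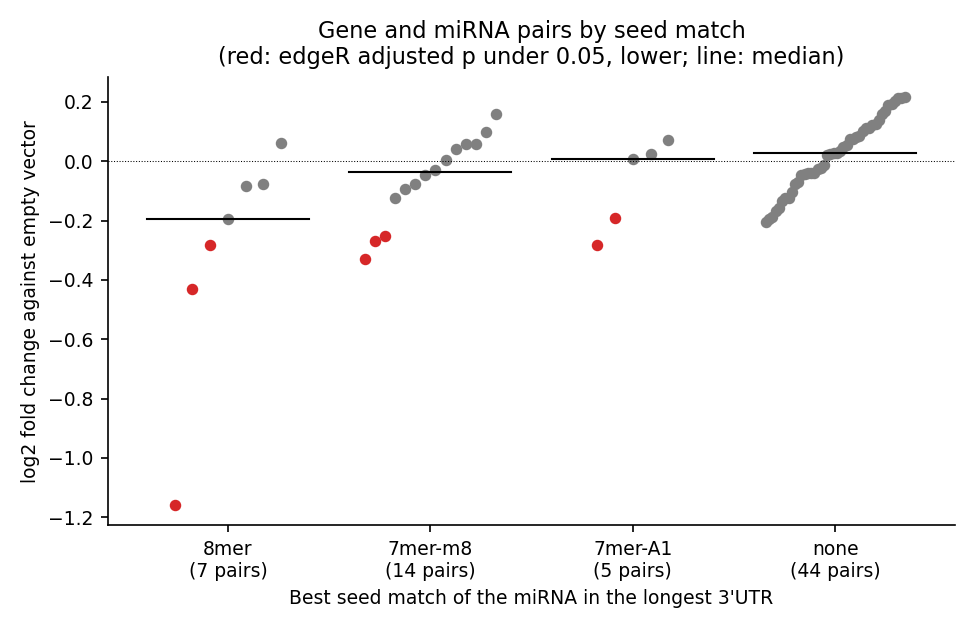
Log2 fold change against the empty vector of each of the 70 gene and miRNA pairs, by the best seed match in the longest 3′UTR, with a line at the median and red points for an edgeR adjusted p under 0.05. The lowest 8mer point is JARID2 with miR-155, and no point of the 44 pairs without a match is red.

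Coding sequences held matches as well. EZH2 has a pair of miR-133a 8mers in its coding sequence and a log2 fold change of -0.12 with miR-133a (adjusted p 0.35). MTF2 and RBBP7 have 1 each, with log2 fold changes of -0.19 and 0.20, and AEBP2 has a miR-122 8mer and a log2 fold change of -0.10 with miR-122 (adjusted p 0.29). None of these pairs with a coding 8mer was called. Weaker coding matches occurred too, among them a 7mer-A1 for miR-122 in MTF2. MTF2 was called lower with miR-122 (log2 fold change -0.19, edgeR adjusted p 0.023) and also has a 7mer-A1 in its 3′UTR. JARID2 has a coding 7mer-A1 and EZH1 a coding 7mer-m8 for miR-133a, with log2 fold changes of 0.07 and 0.05, neither called.

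Other Polycomb genes were taken as lists. Of the genes of PRC1, which binds the PRC2 mark and ubiquitinates histone H2A, 27 were tested. The numbers lower and higher were 2 and 5 with miR-1, 2 and 1 with miR-122, 1 and 1 with miR-133a, 2 and 1 with miR-155, 2 and 1 with miR-302a, 1 and 1 with miR-372 and 1 and 0 with miR-373. Over all tested genes 13.7% were lower and 10.8% higher with miR-1, and 4.06% and 1.86% with miR-122. With the miRNAs of batch 2 the shares were 3.3% to 6.56% lower and 1.37% to 4.82% higher, so that 1 or 2 genes of 27 is close to the background. CBX6, a chromodomain protein of PRC1, was lower with miR-1 by -0.61 (SE 0.0411, edgeR adjusted p 1.8e-09). PHC2, a polyhomeotic protein, was lower with miR-155, at 34.6, 38.8 and 37.1 CPM against 57.6, 63.1 and 60.1 CPM (log2 fold change -0.71, SE 0.0800, edgeR adjusted p 1.1e-05), and its 3′UTR holds 1 miR-155 8mer. Without replicate 2 of miR-155 and the other libraries that stood apart it was lower by -0.75. SCMH1 was lower with miR-122 by -0.50 (SE 0.0554, edgeR adjusted p 4.3e-06). CBX6 has a 7mer-m8 and a 7mer-A1 for miR-1, and SCMH1 a 7mer-A1 for miR-122. KDM2B was lower with miR-155 by -0.33 (SE 0.0802, edgeR adjusted p 0.016) and has no miR-155 match in its longest 3′UTR or coding sequence. Its lowest miR-155 library, at 69.4 CPM, was replicate 2, and its value without that library is not given here.

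Of the 3 relatives of JARID2 that were tested, the KDM5 demethylases of histone H3 lysine 4, KDM5B was called lower with miR-155. It stood at 74.0, 67.1 and 77.5 CPM against 111, 131 and 123 CPM (log2 fold change -0.74, SE 0.0850, edgeR adjusted p 1.4e-05), and like JARID2 it has 2 miR-155 8mers in its 3′UTR. Without the libraries that stood apart it was lower by -0.68. Of 3 other PRC2 accessory genes tested, LCOR, whose locus also encodes a PRC2 partner, was lower with miR-302a, miR-372 and miR-373, by -0.78, -0.84 and -0.64, and has 3 7mer-m8 matches to their seed. Without the libraries that stood apart the values were -0.79, -0.68 and -0.64, all called. LCOR was also lower with miR-1, at 45.2 and 46.5 CPM against 60.5 and 54.6 CPM (log2 fold change -0.33, SE 0.0626, edgeR adjusted p 8.1e-04), so its decrease was not limited to the miRNAs with that seed. Of 6 antagonists of Polycomb silencing, 2 were higher with miR-1 and 0 lower, where 10.8% of all genes were higher, 3 had an unadjusted p under 0.05 and DESeq2 called 1. They were KDM6B, a demethylase of the PRC2 mark, by 0.47 on the log2 scale (SE 0.0645, edgeR adjusted p 2.5e-05), and ASXL2, by 0.21 (SE 0.0643, edgeR adjusted p 0.023). ASXL3 was lower with miR-122 (-0.45, edgeR adjusted p 0.016) and with miR-372 (-0.56, edgeR adjusted p 0.041), and the latter call was lost without the libraries that stood apart (-0.35, adjusted p 0.094). No antagonist was called with the other 4 miRNAs when all libraries were used.

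HOX genes, which are classic targets of Polycomb silencing, were the largest of these lists, with 33 to 35 tested. With miR-1, 7 of 35 were higher and 0 lower (median log2 fold change 0.09), and with miR-122 7 were lower and 0 higher (median -0.13), against the same empty vector libraries. Over all tested genes 10.8% were higher with miR-1 and 4.06% lower with miR-122. DESeq2 called 4 in each, and the unadjusted p was under 0.05 for 12 and 16. Between miR-1 and miR-122, 18 of 35 were higher with miR-1 and 0 lower, where 15.2% of all genes were higher and 16% lower, while DESeq2 called 13. In batch 2, where 33 were tested, the numbers lower were 4 with miR-133a, 3 with miR-302a, 3 with miR-372 and 2 with miR-373, and none was higher. The shares of all genes called lower were 3.97%, 4.85%, 6.56% and 3.3% in the same order. With miR-155, where JARID2 fell most, edgeR called 0 of 33 HOX genes, where 4.81% of all genes were lower and 2.82% higher. Of the 33, 4 had an unadjusted p under 0.05 and DESeq2 called 2. The median over these 33 genes was 0.02. HOXA13, a gene of the distal limb and hindgut, had a log2 fold change of -0.47 with miR-122 (SE 0.0488, edgeR adjusted p 1.7e-06) and of -0.59 with miR-133a (SE 0.0753, edgeR adjusted p 4.7e-05). It was also called lower with miR-302a, miR-372 or miR-373, at -0.35, -0.38 and -0.29, and was not called with miR-1 (-0.04) or miR-155 (-0.24). Without the libraries that stood apart the values with miR-302a and miR-372 were -0.41 and -0.33, both called. HOXD8 was lower with miR-302a, miR-372 and miR-373, by -1.02, -1.17 and -0.92, and has an 8mer for their seed. Its mean was 12.8 CPM in the empty vector and its level 4.86 to 7.10 CPM in the 9 libraries of these miRNAs. Without the libraries that stood apart its values with miR-302a and miR-372 were -0.93 and -1.29.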

How the data were processed

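The deposited values are counts per gene. Per the study's methods, the authors clipped adapters, aligned reads to hg19 with TopHat2 2.1.1, counted exon reads by strand with featureCounts at a mapping quality of at least 50, and deposited the counts without normalization. The authors' tables of log2 fold changes, log CPM, likelihood ratios, p-values and q-values were not used. Identifiers were matched to GENCODE on GRCh37 (28543 of 29794 genes).

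In R 4.3.3, edgeR 4.0.16 was run for each batch with filterByExpr (minimum count 10), TMM factors and a quasi-likelihood fit of all groups. The prior count for fold changes was 0.125, and Benjamini-Hochberg adjustment ran over all tested genes, with a threshold of 0.05. CPM used TMM-scaled library sizes. The code was tested on simulated data. Alternatives were DESeq2 1.42.0, DESeq2 size factors, a likelihood ratio test, other filters, only the groups compared, a replicate block and leaving out libraries.

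The 10 members and all lists were chosen with earlier results of these data known. All members are named. Of the other Polycomb lists, up to 3 genes per comparison with the largest change among called genes (mean log2 CPM 1 or more, no overlap of groups) were eligible. Not all of these are described above. Among those left out were HOXD1 with miR-122 (-1.00), HOXB8 (-0.83) and HOXA2 (-0.63) with miR-133a and HOXA4 with miR-1 (0.48). ASXL2, and further comparisons of some named genes, were added outside this rule. The 5 genes most like JARID2 were named among those with a mean log2 CPM of 2 or more (0.5 CPM was added before the logarithm). Reads of RBBP4, which has 7 annotated pseudogenes, and of EZH2, EED and SUZ12, which have 1 each, may be affected by the demand for unique alignment, which was not tested. No member shares exons with a gene on its own strand.

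The replicate numbers were checked as a pairing by correlating, across genes, the deviations of same-numbered libraries from their group means. Of the pairs of single groups compared, miR-302a with miR-372 alone had all 3 correlations above 0.1 (0.161 to 0.336), and with the block 0 members were called between them, as without it. In the comparisons that average several groups, so did miR-155 with miR-133a (0.183 to 0.345), with miR-302a (0.112 to 0.202) and with miR-372 (0.273 to 0.614), and miR-133a with miR-372 (0.137 to 0.300), but not miR-155 with miR-373, miR-133a with miR-302a or miR-133a with miR-373. With the block, 4 members were called between miR-155 and the other 4 miRNAs in place of 3, and 4 between the same-seed miRNAs and the mean of miR-133a and miR-155, as without it.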

Additional observations from a re-analysis of the deposited data

How the results depend on the processing

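In batch 1 a group held 2 libraries, so small changes there rest on few samples, and a lone library left after an omission was assumed to vary like the other groups. JARID2 stayed called with miR-155 and with miR-1, SUZ12 with miR-1, and none of the 8 changes called against the empty vector reversed under the alternatives run for them. The cause of the differences that follow was not tested.

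The number of members called changed as follows. With miR-122 it was 1 by DESeq2. With miR-133a it was 1 (RBBP7) with only the groups compared and 1 without the 3 libraries that stood apart. With miR-302a it was 0 with DESeq2 size factors (AEBP2 adjusted p 0.055), with no filter (0.13) and with only the groups compared (0.084). With miR-372 it was 0 with only the groups compared (AEBP2 adjusted p 0.072), and 2 without the 3 libraries that stood apart. With miR-373 it was 0 with no filter (AEBP2 adjusted p 0.15) and with only the groups compared (0.052). For the 3 same-seed miRNAs averaged it was 1 with DESeq2 size factors, no filter or only the groups compared, and 4 with miR-133a and miR-155 as the reference, also with a replicate block or without the 3 libraries that stood apart. This reference and the omission of 3 libraries were chosen after seeing the data.

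Leaving out each library in turn gave 2 to 3 members called with miR-1, 0 to 2 with miR-122, 0 with miR-133a, 1 with miR-155, 0 with miR-302a, 1 with miR-372, 0 with miR-373, 4 to 5 between miR-1 and miR-122, 3 to 4 between miR-155 and the other 4 miRNAs, and 1 to 2 for the average of the 3 same-seed miRNAs. The omissions that lowered the miR-122 count to 0 or 1 were those of either miR-122 library and of empty vector replicate 1.

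With the replicate number as a replicate block, 2 members were called with miR-372 (EZH2 and AEBP2), and JARID2 with miR-155 had a log2 fold change of -1.16. The other counts of members called stayed within 1.5 times. Same-numbered libraries of the empty vector and a miRNA group were not treated as pairs in the main fits. Their deviations correlated between -0.19 and 0.22, and with miR-373 the 3 values were 0.220, 0.148 and 0.029. With so few libraries per group this check cannot exclude a pairing.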
